A study of Rattus norvegicus with 6 samples.

Results

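The reactive astrocyte genes examined here were 8 genes that astrocytes are known to switch on after injury: Gfap, Vim, Lcn2, Serpina3n, Cd44, Timp1, Osmr and S1pr3. They were chosen by name and matched to the gene symbols of the deposited table. Of the 8, 7 had a row among the 32623 genes of the table, and all 7 of those passed the filter on low counts. No row carried the symbol Serpina3n, so its level was not analysed here. RNA was sequenced from rat brain (Rattus norvegicus) in 6 libraries. In 3 libraries the genotype label named pcDNA3.1, a mammalian expression plasmid (vector), and in the other 3 it named pcDNA3.1/LINC00894, the plasmid with a long non-coding RNA of that name (LINC00894). By its title the study is about ischemia and reperfusion of the brain, while the sample labels gave neither an ischemic or sham state nor strain, age, sex, brain region, route of plasmid delivery or time after it. Nor did they say whether each library had its own animal; the p-values therefore measure only how far these libraries spread, which may be technical.

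Astrocytes answer injury, inflammation and ischemia by enlarging their cytoskeleton and by changing what they secrete and sense, a state called reactive astrogliosis. Cytokines of the interleukin 6 family act through the shared receptor chain gp130 and the transcription factor STAT3 to drive much of this programme. The genes examined fall into 3 roles: the intermediate filament proteins GFAP and vimentin, the secreted proteins lipocalin 2, TIMP-1 and the serine protease inhibitor SERPINA3N, and the surface receptors CD44, OSMR and S1PR3. Several of them are not specific to astrocytes: vimentin, CD44 and TIMP-1 are also made by vessel, meningeal and immune cells, and lipocalin 2 by neutrophils. In bulk tissue, fewer cells of a type and less RNA per cell cannot be told apart.

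Promoter windows of 300 bases, from 250 before to 50 after the start of each gene, were read from RefSeq for the GRCr8 build, and all 8 genes had one. Each was searched on both strands for TTCNNNGAA, a motif of STAT factors, TGANTCA, a motif of AP-1, and GGGA and TTTCC with any 1 base between them, a motif of NF-kB. Serpina3n held 1 STAT match, whose first base lay at -123 from the start site, and Osmr held 1 AP-1 match, whose first base lay at -33. The other 6 windows held none of the motifs. Only exact matches were counted, so variant sites of these factors would be missed in any window. Among all 33469 promoter windows of the same table, 8.87% held the STAT motif, 7.33% the AP-1 motif and 0.362% the NF-kB motif. The Serpina3n and Osmr windows are shown because they carry the matches (capitals), and the Gfap and Timp1 windows because these genes had the highest level and the widest spread between libraries described further on. The windows lie at chr6:129088142-129088441 on the plus strand for Serpina3n, and on the minus strand at chr2:57688512-57688811 for Osmr, chr10:88361612-88361911 for Gfap and chrX:3771073-3771372 for Timp1.
Serpina3n: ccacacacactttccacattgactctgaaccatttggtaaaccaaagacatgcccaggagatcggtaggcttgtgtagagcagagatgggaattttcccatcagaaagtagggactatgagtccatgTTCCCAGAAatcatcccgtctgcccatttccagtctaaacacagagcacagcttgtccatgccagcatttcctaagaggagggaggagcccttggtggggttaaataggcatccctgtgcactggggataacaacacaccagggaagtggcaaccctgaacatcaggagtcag
Osmr: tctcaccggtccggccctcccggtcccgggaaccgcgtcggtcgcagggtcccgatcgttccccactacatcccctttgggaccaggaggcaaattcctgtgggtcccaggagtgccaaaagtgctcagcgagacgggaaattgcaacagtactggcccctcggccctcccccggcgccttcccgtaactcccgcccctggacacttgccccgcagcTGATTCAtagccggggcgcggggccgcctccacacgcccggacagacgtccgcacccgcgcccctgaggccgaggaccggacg
Gfap: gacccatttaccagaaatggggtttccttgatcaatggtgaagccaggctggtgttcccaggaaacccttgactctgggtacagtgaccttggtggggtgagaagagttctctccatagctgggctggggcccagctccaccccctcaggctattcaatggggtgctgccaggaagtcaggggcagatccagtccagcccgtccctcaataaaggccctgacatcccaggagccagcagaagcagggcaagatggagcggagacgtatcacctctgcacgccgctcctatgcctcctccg
Timp1: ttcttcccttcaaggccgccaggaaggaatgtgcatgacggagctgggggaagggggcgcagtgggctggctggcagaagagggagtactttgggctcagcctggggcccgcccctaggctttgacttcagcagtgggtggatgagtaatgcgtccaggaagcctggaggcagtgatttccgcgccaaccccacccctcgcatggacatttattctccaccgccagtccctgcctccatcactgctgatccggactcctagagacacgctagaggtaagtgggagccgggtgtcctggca

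Gene counts summed to between 12843875 and 16268464 per library. Levels are given as CPM, counts scaled to library size with TMM factors, which compare libraries for 1 gene, and as the deposited FPKM values (per kilobase of exon), which compare genes. The Y-linked Kdm5d and Eif2s3y were at 0 in LINC00894 replicates 1 and 2, and at 491 to 930 and 997 to 1394 counts in the other 4 libraries. Neuronal, oligodendrocyte and homeostatic astrocyte markers were abundant in every library.

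In the coordinates of the table, whose genome build is not named, Gfap (ENSRNOG00000002919) lies on chromosome 10 from 90990762 to 90999506, Vim (ENSRNOG00000018087) lies on chromosome 17 from 80882666 to 80891212, Lcn2 (ENSRNOG00000013973) lies on chromosome 3 from 11414186 to 11417546, Cd44 (ENSRNOG00000006094) lies on chromosome 3 from 92696313 to 92783658, Timp1 (ENSRNOG00000010208) lies on chromosome X from 1364786 to 1369384, Osmr (ENSRNOG00000033192) lies on chromosome 2 from 56110777 to 56151531 and S1pr3 (ENSRNOG00000014524) lies on chromosome 17 from 13799383 to 13812704.

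None of the 7 reactive astrocyte genes measured differed between LINC00894 and vector brain beyond the spread between libraries. The libraries within each group differed instead: vector replicate 3 was low and LINC00894 replicate 1 was high for most of the genes, and the groups overlapped for all 7. By edgeR's quasi-likelihood test, 0 of the 7 genes passed a Benjamini-Hochberg adjusted p of 0.05, where 0% of the 15121 genes tested passed. At an unadjusted p under 0.05 there were again 0 of 7 genes, against 610 of all genes tested (4.03%), and DESeq2, which called 11 genes (0.0727%), also called 0 of the 7. Over the 7 genes the median log2 fold change (LINC00894 minus vector) was 0.55 against 0.01 over all genes tested, with 5 of the 7 genes above 0, against 51.8% of all genes. The 7 genes were also outside the calls of the other fits that called any gene: those made 0.0129% of genes with vector replicate 1 left out, 0.0584% with LINC00894 replicate 3 left out and 0.0351% with every gene that had a count kept. Without LINC00894 replicate 1 the median over the 7 genes was -0.52, and without vector replicate 3 it was 0.13.

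**Figure D1:**
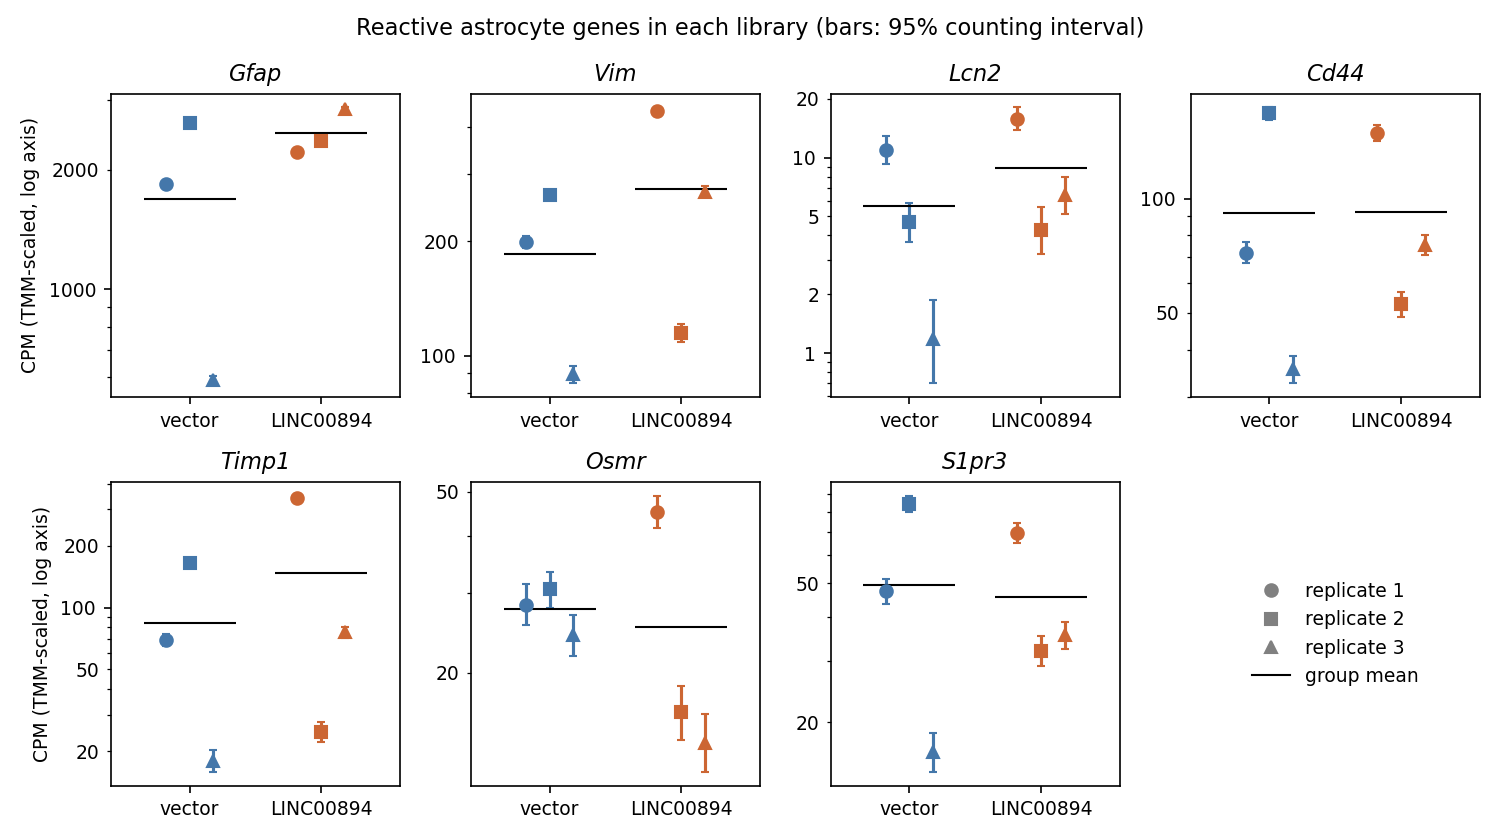
Level of each reactive astrocyte gene in CPM (TMM-scaled, log axis) in the 3 vector and 3 LINC00894 libraries; symbols mark replicates, vertical bars the 95% exact Poisson interval for counting error, and horizontal lines the group means. Vector replicate 3 is the lowest library of its group in 7 of 7 genes, and LINC00894 replicate 1 the highest of its group in all but Gfap.

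Gfap, the filament protein by which astrocytes are usually recognised, was the most abundant of the genes per length, at 451 ± 279 FPKM (SD, n = 3) for vector against 690.5 ± 94 FPKM (SD, n = 3) for LINC00894. In replicates 1, 2 and 3 its raw counts were 23747, 42357 and 8989 (vector) and 30021, 30384 and 38960 (LINC00894). Scaled, these were 1836, 2624 and 590.0 CPM in vector and 2212, 2358 and 2846 CPM in LINC00894. The LINC00894 libraries lay close together and the vector libraries far apart, with vector replicate 2 above LINC00894 replicates 1 and 2. The log2 fold change was 0.55 (SE 0.42, 95% interval -0.40 to 1.5; edgeR adjusted p = 0.981). Without vector replicate 3 it was 0.13 (SE 0.25), and without vector replicate 2 it was 1.03 (SE 0.42, edgeR adjusted p = 0.962), where 3.84% of all genes and Gfap had an unadjusted p under 0.05.

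Vim, which encodes the vimentin that GFAP co-assembles with in reactive astrocytes, had raw counts of 2582, 4271 and 1360 in vector and 5954, 1482 and 3692 in LINC00894. Its scaled level was 199.6, 265 and 89.3 CPM in vector, then 439, 115 and 269.7 CPM in LINC00894. LINC00894 replicate 1 was the highest of the 6 libraries, while LINC00894 replicate 2 lay below vector replicates 1 and 2. The group levels were 97.3 ± 47.8 FPKM (SD, n = 3) for vector against 152 ± 91.5 FPKM (SD, n = 3) for LINC00894, with a log2 fold change of 0.57 (SE 0.47, 95% interval -0.49 to 1.64; edgeR adjusted p = 0.981). Gfap was 2212 and 2358 CPM in LINC00894 replicates 1 and 2, where Vim differed 3.81-fold (95% exact interval for counting error 3.60 to 4.04). With LINC00894 replicate 1 left out, the value for Vim was 0.06 (SE 0.46) and for Gfap 0.63 (SE 0.48). The vector libraries moved both genes alike: Vim was at 0.22 (SE 0.43) without vector replicate 3 and at 0.93 (SE 0.52) without vector replicate 2.

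Timp1, a secreted inhibitor of matrix metalloproteinases, had the widest range of the 7 genes. Its raw counts were 901, 2651 and 273 in vector and 4608, 321 and 1037 in LINC00894, or 69.6, 164 and 17.9 CPM and 339, 24.9 and 75.8 CPM. LINC00894 replicate 1 stood above every other library and LINC00894 replicate 2 below all but vector replicate 3. The highest library was 18.9 times the lowest over all 6 libraries, 9.17 times among the vector libraries (95% exact interval for counting error 8.09 to 10.4) and 13.6 times among the LINC00894 libraries (12.2 to 15.3). The group levels were 112 ± 100 FPKM (SD, n = 3) for vector against 205 ± 237 FPKM (SD, n = 3) for LINC00894. The log2 fold change was 0.81 (SE 0.89, 95% interval -1.20 to 2.81; edgeR adjusted p = 0.981), and -0.74 (SE 0.78) without LINC00894 replicate 1. Timp1 is X-linked, and the highest and lowest LINC00894 libraries were the ones with 0 counts of the Y-linked genes. The same libraries were the highest and lowest of their group for Vim, Lcn2, Cd44 and S1pr3, and a link to X-linkage or to Y-linked counts was not tested.

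Lcn2 encodes the secreted iron-siderophore carrier lipocalin 2. It stood at 6.16 ± 5.38 FPKM (SD, n = 3) for vector against 10.2 ± 7.26 FPKM (SD, n = 3) for LINC00894. By mean FPKM, Lcn2 was the least abundant of the 7 genes in vector, while in LINC00894 Osmr was lower, at 8.96 FPKM. Its raw counts were 142, 76 and 18 in vector and 215, 55 and 88 in LINC00894, or 11, 4.71 and 1.18 CPM and 15.8, 4.27 and 6.43 CPM. Vector replicate 1 was the highest vector library for Lcn2, unlike the other 6 genes, where it was vector replicate 2. LINC00894 replicates 2 and 3 lay between vector replicates 1 and 3. The log2 fold change was 0.66 (SE 0.69, 95% interval -0.88 to 2.21; edgeR adjusted p = 0.981). It was 1.56 (SE 0.68, edgeR adjusted p = 0.998) without vector replicate 1, a fit in which 3.24% of all genes had an unadjusted p under 0.05 as Lcn2 did, and -0.06 (SE 0.72) without LINC00894 replicate 1.

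Serpina3n belongs to a cluster of closely related serpin genes on chromosome 6. Of its relatives, Serpina3m was listed at 0 in every library and Serpina3c at 0 in 5 libraries, with 0.062 CPM in vector replicate 2. A row named LOC299282, described in the table as a serine protease inhibitor whose gene RefSeq calls Serpina3l, spans chromosome 6 from 127941526 to 128080889 and encloses the row of Serpina3c. LOC299282 was picked out after its values were seen. Its raw counts came to 382, 1196 and 56 (vector) against 1100, 478 and 590 (LINC00894), or 29.5, 74.1 and 3.68 CPM and 81, 37.1 and 43.1 CPM, and so had the same lowest and highest libraries as Timp1, Vim and Lcn2. Its log2 fold change was 0.59 (SE 0.75; edgeR adjusted p = 0.981). Whether reads of Serpina3n were counted in this row was not tested.

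Among the receptors, Cd44, the receptor for hyaluronan and osteopontin, had nearly equal group means. Its raw counts were 932, 2705 and 541 in vector and 2021, 680 and 1033 in LINC00894, or 72, 168 and 35.5 CPM and 149, 52.8 and 75.5 CPM. Vector replicate 2 was the highest library and vector replicate 3 the lowest, so the vector group enclosed the LINC00894 group. The means were 22.7 ± 17.2 FPKM (SD, n = 3) for vector against 23.9 ± 13.3 FPKM (SD, n = 3) for LINC00894, with a log2 fold change of 0.01 (SE 0.52, 95% interval -1.16 to 1.18; edgeR adjusted p = 0.999). The sign of a difference this small depends on the scaling: it was -0.01 with median-of-ratios factors. It was also -0.40 (SE 0.43) without vector replicate 3 and 0.78 (SE 0.44) without vector replicate 2.

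S1pr3, a receptor for the lipid mediator sphingosine 1-phosphate, had a similar order of libraries. Its raw counts were 613, 1360 and 250 in vector and 944, 412 and 484 in LINC00894, or 47.4, 84.3 and 16.4 CPM and 69.5, 32 and 35.4 CPM. As with Cd44, vector replicates 2 and 3 were the highest and lowest of the 6 libraries. The means were 13.1 ± 9.18 FPKM (SD, n = 3) for vector against 12.7 ± 5.96 FPKM (SD, n = 3) for LINC00894, with a log2 fold change of -0.11 (SE 0.50, 95% interval -1.24 to 1.01; edgeR adjusted p = 0.986).

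Osmr, which encodes the receptor subunit that pairs with gp130 to bind oncostatin M, departed from the other genes. Its raw counts were 365, 492 and 369 in vector and 614, 211 and 192 in LINC00894, or 28.2, 30.5 and 24.2 CPM and 45.2, 16.4 and 14 CPM. The vector libraries lay close together, and the LINC00894 libraries lay on both sides of them, with replicate 1 above all vector libraries and replicates 2 and 3 below all of them. The means were 9.32 ± 1.18 FPKM (SD, n = 3) for vector against 8.96 ± 6.3 FPKM (SD, n = 3) for LINC00894. The log2 fold change was -0.13 (SE 0.39, 95% interval -1.02 to 0.75; edgeR adjusted p = 0.981). Without LINC00894 replicate 1 it was -0.86 (SE 0.21, edgeR adjusted p = 0.927), and in the 4 libraries with Y-linked counts, of which 1 was LINC00894, it was -0.97 (SE 0.27, edgeR adjusted p = 0.527). Osmr had an unadjusted p under 0.05 in both fits, as did 3.85% and 9.3% of all genes.

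**Figure D2:**
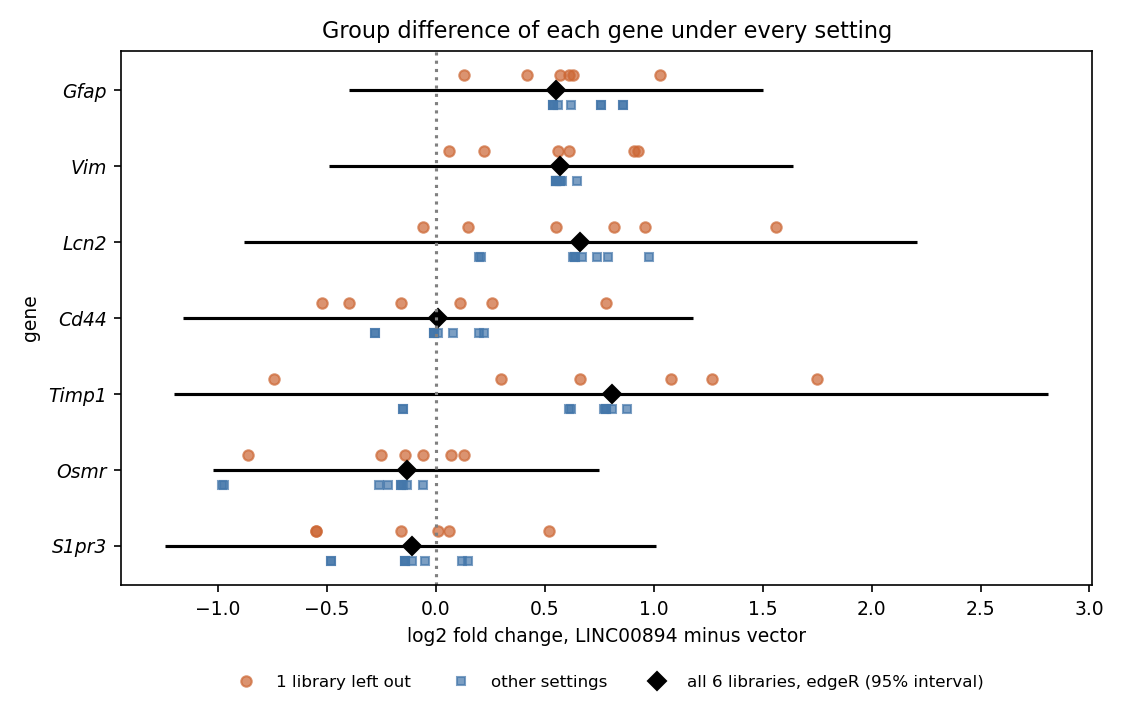
Log2 fold change of LINC00894 over vector for each gene (diamonds, edgeR on all 6 libraries, with 95% intervals), beside the fits with 1 library left out (circles) and the other settings (squares). All 7 intervals contain 0, and the fits with 1 library left out cross 0 for Lcn2, Cd44, Timp1, Osmr and S1pr3, while those of Gfap run from 0.13 to 1.03 and those of Vim from 0.06 to 0.93.

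Set against each other library by library, which gives 9 pairs of a LINC00894 and a vector library, the LINC00894 library was higher in 7 of 9 pairs for Gfap and Vim and in 6 of 9 for Lcn2 and Timp1. It was higher in 5 of 9 pairs for Cd44, 4 of 9 for S1pr3 and 3 of 9 for Osmr. None of the 7 genes had groups that did not overlap, while 8.86% of all genes tested had. Two-sided exact permutation tests of log2(CPM + 1) over 20 arrangements of the libraries gave p from 0.3 for Gfap to 1 for S1pr3, where 0.1 is the smallest p that 3 against 3 libraries allow.

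The order of libraries was shared by most of the genes. Vector replicate 3 was the lowest vector library for 7 of 7 genes, against 39.4% of all genes tested, and the lowest of all 6 libraries for 6 of 7, against 23.5%. Vector replicate 2 was the highest vector library for 6 of 7 genes, against 31.8%. LINC00894 replicate 1 was the highest LINC00894 library for 6 of 7 genes, against 37.3%, and the highest of all 6 libraries for 4 of 7, against 22.2%. LINC00894 replicate 2 was the lowest of its group for 5 of 7 genes, against 34%. Gfap was the gene for which LINC00894 replicate 1 was the lowest of its group. The median deviation of the 7 genes from their means over all libraries, on the log2(CPM + 1) scale, was 0.49 in vector replicate 2 and -1.29 in vector replicate 3. It was 0.89, -0.56 and 0.08 in LINC00894 replicates 1, 2 and 3, and vector replicate 1 lay at 0.

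The range between the libraries of 1 group was larger for most of these genes than for nearly all other genes. On the log2(CPM + 1) scale, the highest vector library exceeded the lowest by a median of 2.21 over the 7 genes and 0.40 over all genes tested, and the corresponding values for LINC00894 were 1.62 and 0.47. A range at least as wide as that of Timp1 was found in 0.112% of all genes tested in vector and in 0.0661% in LINC00894. For Lcn2, S1pr3, Cd44 and Gfap the shares in vector were 0.278%, 0.364%, 0.423% and 0.463%. Exceptions were Osmr in vector, with a range of 0.32, and Gfap in LINC00894, with 0.36, both below the median of all genes. Counting error was small beside these ranges: the ratio of vector replicate 2 to vector replicate 3 was 4.45 for Gfap (95% exact interval 4.35 to 4.55) and 4.72 for Cd44 (4.30 to 5.19), intervals that cover counting error only.

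**Figure D3:**
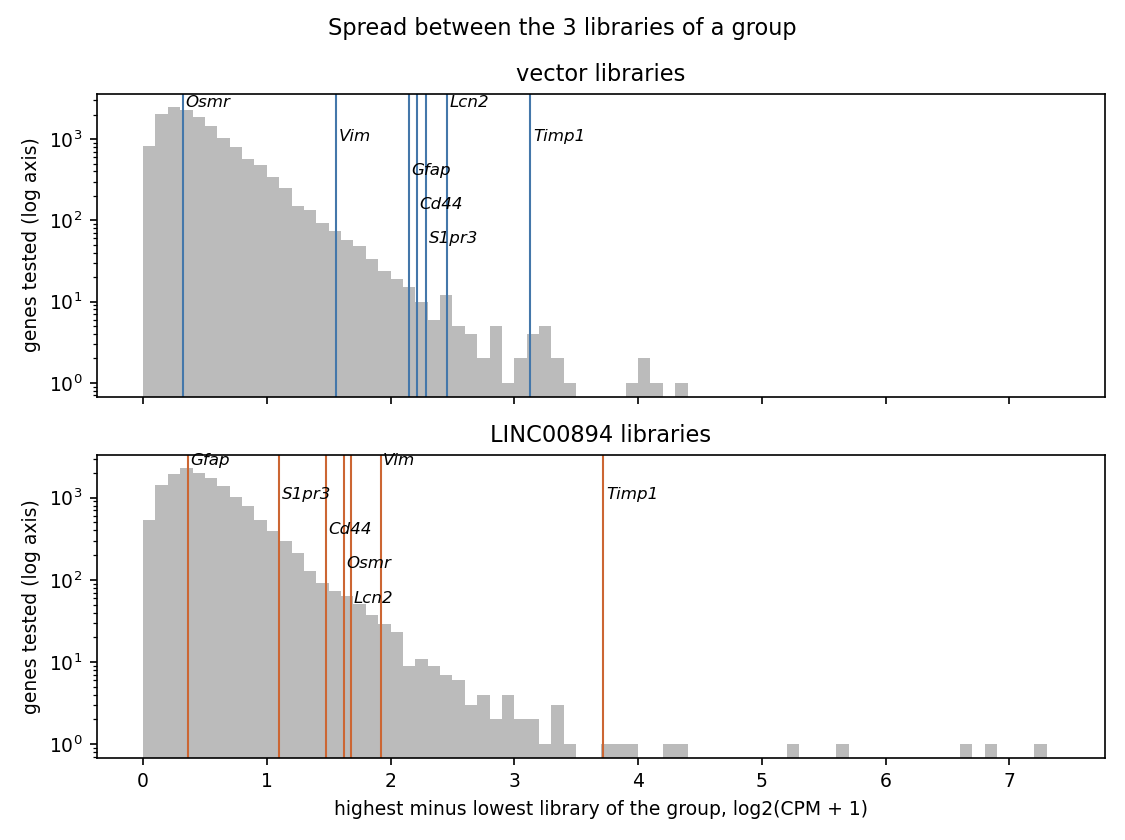
Difference between the highest and the lowest library of a group on the log2(CPM + 1) scale (horizontal axis) for all genes tested (grey bars, number of genes on a log axis), in vector (top) and LINC00894 (bottom), with vertical lines at the reactive astrocyte genes. Osmr in vector (0.32) and Gfap in LINC00894 (0.36) lie in the bulk of the genes, and Timp1 lies at 3.13 and 3.72.

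Other genes of astrocyte reactivity were listed from general knowledge of the field. In 3 such lists the median deviation was highest in LINC00894 replicate 1; it was lowest in vector replicate 3 for 2 of them and in LINC00894 replicate 2, at -0.63 against -0.47 in vector replicate 3, for the A2 set. Of 11 further genes induced in many forms of injury, 7 had a log2 fold change above 0 and 4 below, 0 had an unadjusted p under 0.05 by edgeR, and the median was 0.09. Their median deviation was -0.74 in vector replicate 3 and 1.01 in LINC00894 replicate 1. Nes, the progenitor filament nestin, stood at 6.03, 15.6 and 4.79 CPM in vector and 40.6, 7.37 and 12.1 CPM in LINC00894 (log2 fold change 1.18, SE 0.63), and Steap4, a metalloreductase, at 4.87, 3.72 and 2.89 CPM and 12.9, 3.03 and 4.75 CPM (0.85, SE 0.50). For both, LINC00894 replicate 1 alone lay above all vector libraries. Of the 9 genes of the A1 set, first described in mouse astrocytes after endotoxin, 7 were above 0 with a median of 0.44, and 1 had an unadjusted p under 0.05: Ggta1, a glycosyltransferase, at 0.72 (SE 0.30; edgeR adjusted p = 0.981). Of the 12 genes of the A2 set, first described in mouse astrocytes after ischemia, 11 were tested, 5 above and 6 below 0, with a median of -0.05. At an unadjusted p under 0.05, Tm4sf1 was higher in LINC00894 (0.92, SE 0.35) and Ptgs2, the inducible cyclooxygenase, lower (-0.96, SE 0.36), both with an edgeR adjusted p of 0.981. In all genes tested, 1.82% were higher and 2.22% lower at that unadjusted p.

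Transcripts of the gp130 and STAT3 pathway, to which Osmr belongs, did not differ between the groups beyond the spread either. Only RNA levels were measured, so the activity of the pathway was not tested. The list of these genes includes Osmr itself. Of 20 genes tested, 8 had a log2 fold change above 0 and 12 below, 0 had an unadjusted p under 0.05 by edgeR, and the median was -0.10. Jak2, a kinase that gp130 receptors use, had the smallest unadjusted p, with a log2 fold change of -0.32 (SE 0.16). Stat3 itself stood at 267, 317 and 162 CPM in vector and 348, 193 and 195 CPM in LINC00894, and its feedback inhibitor Socs3 at 39, 44.8 and 16.1 CPM and 64.4, 20.4 and 25.2 CPM. The gp130 cytokines Il11 and Lif ranged most widely: Il11 had 4.72, 28.6 and 0.853 CPM in vector and 50.5, 3.96 and 8.11 CPM in LINC00894, and Lif 9.28, 26.6 and 1.58 CPM and 22.5, 3.8 and 6.87 CPM. These 4 genes, named after their values were seen, were lowest in vector replicate 3 and were higher in LINC00894 replicate 1 than in the other LINC00894 libraries. Osm, the ligand of the Osmr receptor, was likewise picked out afterwards and was scarce, at 1.08, 2.17 and 1.51 CPM in vector and 3.02, 0.621 and 2.12 CPM in LINC00894.

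Known partners of the other proteins were taken list by list. Of 10 intermediate filament genes, which include Gfap and Vim, 7 were above 0 with a median of 0.27, and the neuronal Nefh was at 0.29 (SE 0.16) and Nefm at 0.26 (SE 0.15). Of 16 metalloproteinases, related proteases and their inhibitors, 15 were tested, and 2 were lower in LINC00894 at an unadjusted p under 0.05: Timp2, at 265, 303 and 222 CPM in vector and 193, 215 and 203 CPM in LINC00894 (log2 fold change -0.37, SE 0.16), and the membrane protease Mmp17 (-0.68, SE 0.22), both with an edgeR adjusted p of 0.981. Of 13 genes of hyaluronan handling and CD44 ligands, 6 were above 0, with Spp1, which encodes osteopontin, at 8.66, 53 and 13.3 CPM in vector and 78, 24.2 and 54 CPM in LINC00894 (1.06, SE 0.63). Of 12 genes of sphingosine 1-phosphate signalling, 11 were tested, 5 above and 6 below 0, with a median of -0.02; the receptor S1pr2 had a log2 fold change of 0.34 (SE 0.40). Of 9 genes of lipocalin receptors and iron handling, 6 were tested, with the receptor Slc22a17 at -0.22 (SE 0.19). Fth1 and Slc40a1 were listed at 0 in every library. Whether these rows lacked RNA or lost their reads in counting was not tested. Among 9 serpin paralogs and serine proteases, 6 had a row and Klk6 alone passed the filter, at 0.92 (SE 0.30, edgeR adjusted p = 0.981). Klk6 had an unadjusted p under 0.05 by edgeR, as did 4.03% of all genes tested.

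Homeostatic astrocyte markers varied less between libraries in their median than the reactive genes, a difference that was not tested. All 14 were tested, 6 with a log2 fold change above 0 and 8 below, and 0 had an unadjusted p under 0.05 by edgeR. Their median deviation by library ran from -0.20 in LINC00894 replicate 1 to 0.14 in vector replicate 1, and it was -0.02 in vector replicate 3. Vector replicate 3 was the lowest vector library for 35.7% of them and LINC00894 replicate 1 the highest LINC00894 library for 7.14%. A median can hide the spread of single markers. Slc4a4 ran from 42.5 CPM in LINC00894 replicate 3 to 137 CPM in vector replicate 3. Mlc1, picked out after its values were seen, ran only from 215 to 274 CPM. The glutamate transporter gene Slc1a2 had the smallest unadjusted p, with a log2 fold change of -0.60 (SE 0.33), followed by Gja1, which encodes connexin 43, at -0.30 (SE 0.16). The summed level of the homeostatic markers was 6027 to 7326 CPM in vector and 6688 to 7089 CPM in LINC00894. For the 7 reactive genes it was 775 to 3339.9 CPM and 2604 to 3323 CPM. Gfap made up most of the reactive sum in every library, such as 590.0 of 775 CPM in vector replicate 3 and 2358 of 2604 CPM in LINC00894 replicate 2. That sum therefore says little about the other reactive genes.

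**Figure D4:**
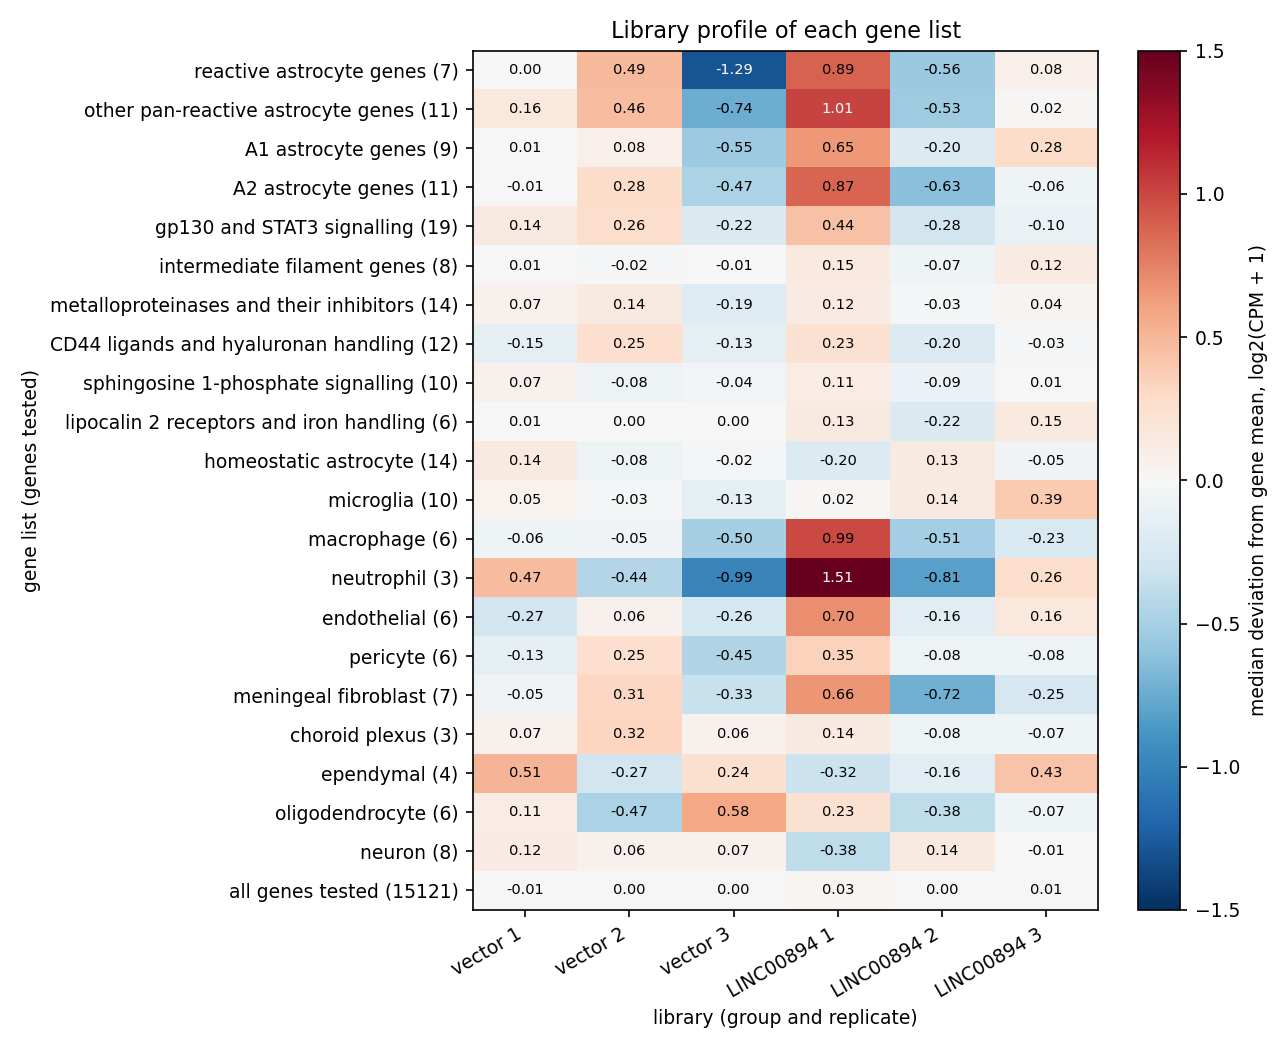
Median deviation of each gene list from its genes' means over the 6 libraries, in log2(CPM + 1) units, with libraries in columns and lists in rows; the number of tested genes is in brackets, and lists other than the first leave out the 7 reactive astrocyte genes. The reactive genes run from -1.29 in vector replicate 3 to 0.89 in LINC00894 replicate 1, homeostatic astrocyte markers from -0.20 to 0.14.

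Markers of several other cell types shared the high LINC00894 replicate 1 of most reactive genes, but not always the low vector replicate 3. Their part in the values given here was not tested. Of 7 macrophage markers, 6 were tested, with a summed level of 61.8 to 74.3 CPM in vector and 55.9 to 155 CPM in LINC00894 and a median deviation of 0.99 in LINC00894 replicate 1. Of 7 neutrophil markers, 3 were tested; the sums were 8.8 to 27.7 CPM and 15.7 to 55.6 CPM, with S100a9 at 10.5, 2.91 and 2.1 CPM in vector and 26.5, 2.64 and 8.47 CPM in LINC00894, and Mpo, Elane and Camp below 1 CPM in every library. Endothelial markers, of which 7 of 9 had a row and Cldn5 was listed at 0, summed to 199 to 287 CPM in vector and 247 to 417 CPM in LINC00894. Meningeal fibroblast markers, 7 of 8 with a row, summed to 120.2 to 232 CPM and 105 to 283 CPM, and the 6 pericyte markers to 101 to 131 CPM and 100.3 to 132 CPM. In each of these 5 lists the highest sum was in LINC00894 replicate 1, though for pericytes vector replicate 2 was close, at 131 against 132 CPM. The median log2 fold change was 1.01 for the neutrophil, 0.56 for the endothelial and 0.45 for the macrophage markers tested. For the pericyte and meningeal fibroblast markers it was 0.14 and -0.18. Vector replicate 3 had the lowest sum of all libraries for the neutrophil and endothelial lists. For the macrophage, meningeal fibroblast and pericyte lists the lowest sum was in a LINC00894 library. The median deviation did not always follow the sums. For pericyte markers it was lowest in vector replicate 3, at -0.45. For macrophage markers vector replicate 3 (-0.5) was close to LINC00894 replicate 2 (-0.51). For meningeal fibroblast markers the same libraries were at -0.33 and -0.72. Endothelial markers were at -0.26 in vector replicate 3 and -0.27 in vector replicate 1. The 10 microglial markers summed to 318 to 454 CPM in vector and 469.5 to 554 CPM in LINC00894, with the highest sum in LINC00894 replicate 3, although single markers peaked in other libraries. Of these, 8 had a log2 fold change above 0. Aif1, which encodes IBA1, stood at 9.35, 10.7 and 8.86 CPM in vector and 13.6, 15.8 and 22.6 CPM in LINC00894 (log2 fold change 0.85, SE 0.24, edgeR adjusted p = 0.981). Aif1 had an unadjusted p under 0.05 by edgeR, as did 4.03% of all genes tested. Its groups did not overlap, which held for 8.86% of all genes tested. Oligodendrocyte markers were highest in vector replicate 3, at 10717 CPM against 4696 to 7818 CPM in the other libraries, and neuronal markers lowest in LINC00894 replicate 1, at 5637 CPM against 6763 to 8299 CPM. Choroid plexus markers summed to 4.35 to 28.2 CPM over the libraries, with Otx2 at 0 and Ttr below 1 CPM, and ependymal markers to 18.1 to 30.5 CPM, with 5 of 6 in the table.

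Y-linked counts were present in 3 vector libraries and 1 LINC00894 library, so their absence and the LINC00894 group are largely confounded in this design. The LINC00894 libraries without Y-linked counts were the highest and the lowest of their group for Vim, Lcn2, Cd44, Timp1 and S1pr3. With presence of these counts as a covariate, 0 of the 7 genes passed edgeR's adjusted p, and the log2 fold changes of Gfap and Vim were 0.76 (SE 0.62) and 0.55 (SE 0.72). In that fit the sign turned for Timp1, at -0.15 (SE 1.35), and for Cd44, at -0.28 (SE 0.82). Osmr was at -0.98 (SE 0.52), S1pr3 at -0.48 (SE 0.79) and Lcn2 at 0.20 (SE 1.05), and the median over the 7 genes was -0.15, against 0.55 without the covariate.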

How the data were processed

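Rat brain mRNA, selected by its poly(A) tail, was read from both ends, per the labels' protocols. The authors deposited 1 table of raw counts and FPKM values for 32623 Ensembl genes, per the file headers. The deposited FPKM equals counts divided by exonic length and by summed counts, to within 0.005. Of the tools used, HISAT2 2.0.1 and DESeq2 are listed, per the submitters' processing notes, with no roles. The sources used here name no counter, strand setting or build, so reads of overlapping or antisense genes may be mixed. For rows at 0 in every library, such as Fth1, Slc40a1, Cldn5 and Serpina3m, absent RNA and reads lost in counting were not told apart. Rows without a gene symbol (388) held 0.0236% of counts.

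Libraries were grouped by the genotype label, and replicates numbered in accession order, which pairs nothing. edgeR 4.0.16 in R 4.3.3 (filterByExpr, minimum count 10, minimum total 15; TMM factors; quasi-likelihood F-test, no covariates) was fitted to all genes, with Benjamini-Hochberg adjustment over 15121 genes and a threshold of 0.05. SE is the log2 fold change divided by the square root of F. Alternatives were DESeq2 1.42.0, other scalings and filters (no filter, or at least 1 CPM in 3 libraries), limma 3.58.1 on log2 FPKM (pseudocount 1 or 0.1, mean of at least 0.5), each library left out, and Y-linked counts as a covariate or a selection. The fits were tested on simulated counts. Counting intervals are 95% and exact, and cover counting error only.

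The 8 genes and the 21 other lists were chosen with earlier results of these data known. Of 203 symbols listed, 196 had a row. Genes named are the 8, up to 4 of each list with the smallest unadjusted p, the 8 genes most like them, and Kdm5d and Eif2s3y; not all of these are reported. Genes picked out afterwards are marked, and markers at or near 0 are named for that reason.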

Additional observations from a re-analysis of the deposited data

How the results depend on the processing

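The count of 0 genes called was 11 by DESeq2 and 8 without a filter on low counts, and ran from 0 to 9 with 1 library left out (2 without vector replicate 1 and 9 without LINC00894 replicate 3); it was 0 under the 7 other settings. None of the 7 reactive astrocyte genes passed an adjusted p of 0.05 in any of the 15 settings, where the lowest adjusted p was 0.527. Their median log2 fold change ran from -0.52 (without LINC00894 replicate 1) to 0.78 (without vector replicate 2) with 1 library left out; it was -0.15 with Y-linked counts as a covariate or a selection, and 0.54 to 0.62 under the other 7 settings. Gfap and Vim kept a positive sign in 15 of 15 settings. With 1 library left out, the log2 fold change ran from 0.13 to 1.03 for Gfap, 0.06 to 0.93 for Vim, -0.06 to 1.56 for Lcn2, -0.52 to 0.78 for Cd44, -0.74 to 1.75 for Timp1, -0.86 to 0.13 for Osmr and -0.55 to 0.52 for S1pr3; the leave-one-out values of the last 5 cross 0. Cd44 was -0.01 by DESeq2, with median-of-ratios scaling and without a filter, and -0.28 with Y-linked counts as a covariate or a selection. Timp1 was -0.15 in both of the latter. S1pr3 was 0.12 and 0.15 by limma with a pseudocount of 1 and 0.1. The cause of these changes was not tested. At an unadjusted p under 0.05, Lcn2 passed without vector replicate 1 (where 3.24% of all genes did), Gfap without vector replicate 2 (3.84%), and Osmr without LINC00894 replicate 1 (3.85%) and in the libraries with Y-linked counts (9.3%). That last fit rests on 1 LINC00894 library, which is assumed to vary like the vector libraries. No paired analysis was possible because the labels give the groups no shared replicate numbers. Depth limits Lcn2 most, with 18 counts in vector replicate 3.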

Other observations

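The genes whose levels followed the 7 reactive astrocyte genes most closely were sought among 13725 other genes with at least 1 FPKM on average, by Pearson's correlation of log2(CPM + 1) with the mean z-score of the 7 genes over the 6 libraries. These are descriptions with no test, since the best of many genes over 6 libraries reach high values by selection, and 407 genes (2.97%) reached 0.9. The 8 highest were Spidr (0.996), Efemp2 (0.994), Niban2 (0.993), Scamp2 (0.993), Adipor1 (0.991), Efemp1 (0.991), Alg3 (0.99) and Ifitm1 (0.988). Ifitm1, an interferon-induced membrane protein gene, stood at 7.34, 10.1 and 1.44 CPM in vector and 17.2, 2.41 and 5.26 CPM in LINC00894. Efemp1 and Efemp2, which encode fibulins of the extracellular matrix, ranged from 7.02 to 18.3 CPM and from 20.7 to 37.9 CPM. The log2 fold changes of the 8 genes ran from 0.09 (SE 0.25) for Alg3 to 0.40 (SE 0.74) for Ifitm1.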
